A study of Mus musculus with 3 samples.

Results

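The interleukin-1 (IL-1) family and inflammasome genes of the pancreas were followed through 9 genes taken by name from the 31053 in the files. They are the cytokines Il1b, Il1a and Il18, the inhibitors Il1rn and Il18bp, the decoy receptor Il1r2, the receptor chain Il1rap, the inflammasome sensor Nlrp3 and the protease Casp1. All 9 were read in barcodes with at least 1000 unique molecular identifiers (UMIs, counted transcripts) and at most 30% mitochondrial UMIs. The cells were viable leukocytes (CD45+) sorted out of mouse pancreas and profiled by 10x single-cell RNA sequencing. One group received PBS and the others whole beta-glucan particles (WGP) 3 days (3-day WGP) or 7 days (7-day WGP) before, with 1 library each. WGP is a particulate beta-glucan from yeast, given as a single intraperitoneal injection. The labels name no strain, sex or age, and the methods name wild-type C57BL/6J mice of both sexes, 6 to 8 weeks old, as the animals without a gene deletion. How many mice went into each library is not given in the sources used here.

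IL-1alpha and IL-1beta act through the same receptor, IL-1R1, which needs the accessory chain encoded by Il1rap to signal. IL-1beta and IL-18 are made as inactive precursors and are cut by caspase-1 once an inflammasome, such as the one built on NLRP3, has assembled, whereas IL-1alpha is active without this cut. The receptor antagonist encoded by Il1rn occupies IL-1R1 without signalling, IL-1R2 binds IL-1 as a decoy, and the IL-18 binding protein encoded by Il18bp neutralises IL-18. Neutrophils, monocytes and macrophages are known producers of IL-1, and in the inflamed pancreas IL-1 is known as an early inflammatory signal. RNA levels report neither cleavage nor secretion.

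The filter kept 5249 PBS, 4879 3-day WGP and 4174 7-day WGP barcodes, 14302 in all, with medians of 5755, 5754 and 8077 UMIs from libraries of 48219246 to 56849043 UMIs. Clustering without the 9 genes gave 28 clusters, 24 of which fell into 14 classes named from marker genes, and 4 clusters (10.5% of cells) stayed unnamed. A class name here always means cells with that type's markers (neutrophil-like, and so on). With 1 library per group there was no replicate check and no test, and every interval is an exact 95% interval that covers counting error only. Cells with Xist and no chromosome Y transcript made up 54.0% (PBS), 16.0% (3-day WGP) and 39.3% (7-day WGP) of the cells that these transcripts could type. In the monocyte/macrophage class 806 PBS cells were of the Xist kind and 9 of the Y kind, against 86 and 497 at 3 days and 585 and 603 at 7 days. Values within Xist cells therefore stand beside several levels of that class. None are given for its sub-clusters or its inhibitor ratios, where sex of the mice and library cannot be told apart. Neutrophils had 23 and 5 such cells in PBS, 9 and 87 at 3 days and 17 and 48 at 7 days. For cDC2 the counts were 137 and 6, 8 and 24, and 52 and 134, and for cDC1 72 and 36, 4 and 108, and 23 and 54. No values within Xist cells were made for these classes, where sex and library cannot be told apart. The pairs of libraries shared 9, 1 and 5 barcodes.

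All 9 genes are protein coding and lie on the GRCm38 build as follows. Il1b (ENSMUSG00000027398) spans chr2:129364570-129371139 and Il1a (ENSMUSG00000027399) spans chr2:129299610-129309972, both on the minus strand. Il1rn (ENSMUSG00000026981) is at chr2:24336853-24351494, Il1r2 (ENSMUSG00000026073) at chr1:40074079-40125231 and Il1rap (ENSMUSG00000022514) at chr16:26581704-26730117, all on the plus strand. Il18 (ENSMUSG00000039217) is at chr9:50554827-50581840 and Casp1 (ENSMUSG00000025888) at chr9:5298517-5307265, both on the plus strand. Il18bp (ENSMUSG00000070427) is at chr7:102014885-102018690 on the minus strand and Nlrp3 (ENSMUSG00000032691) at chr11:59541568-59566956 on the plus strand.

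The 4 members that were at least 2-fold higher in monocyte/macrophages at both times are shown here by the 250 bases before their transcription start, from RefSeq (GRCm38.p6), each read along its own gene's strand. Capitals mark matches to any of 4 motifs searched on both strands: the NF-kappa-B consensus, the PU.1 core GAGGAA, AP-1 as TGANTCA and C/EBP as TTGCNNAA.
Il1b, chr2:129371140-129371389, minus strand: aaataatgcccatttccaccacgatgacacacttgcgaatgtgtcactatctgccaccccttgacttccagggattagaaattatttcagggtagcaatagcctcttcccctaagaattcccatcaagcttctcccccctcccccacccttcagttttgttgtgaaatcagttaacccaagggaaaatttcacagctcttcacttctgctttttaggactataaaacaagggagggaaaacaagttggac
Il1a, chr2:129309973-129310222, minus strand: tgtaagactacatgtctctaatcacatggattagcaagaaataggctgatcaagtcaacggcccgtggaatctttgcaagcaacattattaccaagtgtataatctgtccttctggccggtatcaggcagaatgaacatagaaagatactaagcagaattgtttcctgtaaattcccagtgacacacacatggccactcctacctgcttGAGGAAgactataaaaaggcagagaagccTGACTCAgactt
Il1rn, the first of its start sites, chr2:24336610-24336859, plus strand: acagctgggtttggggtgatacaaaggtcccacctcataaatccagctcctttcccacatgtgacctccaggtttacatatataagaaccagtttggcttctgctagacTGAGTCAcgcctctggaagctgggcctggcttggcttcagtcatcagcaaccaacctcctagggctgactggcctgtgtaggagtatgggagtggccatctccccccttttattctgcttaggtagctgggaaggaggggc
Il18bp, chr7:102018233-102018482, minus strand: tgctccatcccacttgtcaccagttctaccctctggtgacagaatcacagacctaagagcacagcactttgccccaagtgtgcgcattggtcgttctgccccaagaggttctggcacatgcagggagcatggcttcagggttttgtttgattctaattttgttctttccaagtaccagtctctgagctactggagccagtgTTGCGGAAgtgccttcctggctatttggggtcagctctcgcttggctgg
The Il1a window held a PU.1 core from -41 to -36 and an AP-1 match from -12 to -6, counted back from the start site. The Il1rn window held an AP-1 match from -141 to -135, the Il18bp window a C/EBP match from -49 to -42, and the Il1b window none of the 4. Of the 12 start sites of the 9 members, 1 held the NF-kappa-B consensus, against 7.25% of 32851 windows of the same length. The PU.1 core was at 3 of the 12 start sites (23.3% of windows), the AP-1 motif at 2 (6.75%) and the C/EBP motif at 1 (9.56%). A match is a string of letters and not a measured site.

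Il1b, the gene for IL-1beta, was highest in neutrophils in all 3 libraries, and in monocyte/macrophages it was 6.75-fold higher than PBS at 3 days and 16.5-fold higher at 7 days. Levels are given as UMIs of the gene per 1000000 UMIs of the class (CPM). The neutrophil level was 4054 CPM under PBS, 10243 at 3 days and 10908 at 7 days, from 85, 221 and 184 cells. The summed monocyte/macrophage markers in these neutrophils were 10465 CPM, 4108 and 5703. These were 45.0%, 13.8% and 17.7% of their level in monocyte/macrophages, with none of the 8 at 0. Lyz2 alone made up 18259 of the 23237 CPM of this sum in PBS monocyte/macrophages. Of the 85 PBS neutrophils, 33 were in cluster 24, described below. The part of these transcripts in neutrophil Il1b was not tested. In monocyte/macrophages it stood at 89.1 CPM (83.2 to 95.3; 841 UMIs in 855 cells) in PBS, 601 (587 to 615; 7225 UMIs in 781 cells) at 3 days and 1474 (1456 to 1491; 26413 UMIs in 1487 cells) at 7 days. PBS was lowest and 7-day WGP highest, and the intervals did not overlap. The log2 ratios to PBS were 2.75 (2.65 to 2.86) and 4.05 (3.95 to 4.15).

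Among the classes with at least 50 cells, the order of Il1b levels in PBS was neutrophils, then type 2 conventional dendritic cells (cDC2) at 219 CPM, then monocyte/macrophages and type 1 conventional dendritic cells (cDC1) at 80.6, whose intervals overlapped. At 7 days it was neutrophils, cDC2 at 1580 CPM (1535 to 1626), monocyte/macrophages and cDC1 at 949.5 (907 to 993.5), with no overlap between neighbours. In cDC1 the 3-day level of 100.5 CPM lay near that in PBS, with a log2 ratio of 0.32 (0.01 to 0.63), and the 7-day ratio was 3.56 (3.33 to 3.797). The summed neutrophil markers reached at most 30.5 CPM in cDC1 and 25.6 CPM in cDC2, at most 0.0240% of their level in neutrophils. At 7 days 4 of the 7 markers were at 0 in cDC1 (Cxcr2, Mmp9, Retnlg and Ly6g). In cDC2 2 of the 7 were at 0 (Retnlg and Ly6g), and the others were detected. The summed monocyte/macrophage markers were higher in these classes, at 3779, 2315 and 3825 CPM in cDC2 (16.3%, 7.76% and 11.9% of their level in monocyte/macrophages) and 1421 to 1434 CPM in cDC1 (4.42 to 6.17%), and their part in the DC levels was not tested. Of the cDC2, 108 of 143 PBS cells were in cluster 8.1 and 198 of 209 7-day cells in cluster 8.0. Within cluster 8.0 Il1b went from 106 CPM (35 cells) to 1640 CPM, and within cluster 8.1 from 255 CPM to 293 CPM (11 cells at 7 days).

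B cells, which should lack Il1b, had 6.36, 44.8 and 42.1 CPM, and free RNA, read from barcodes of at most 100 UMIs, had 105, 461 and 697 CPM. Summed neutrophil markers in B cells were 310, 1529 and 15.0 CPM, and their part in these values was not tested. Without the highest doublet scores the B cell values of Il1b were 3.61, 35.5 and 23.7 CPM. T cells stood at 1.27, 93.9 and 44.9 CPM, and NK cells, gamma-delta T cells, type 2 innate lymphoid cells (ILC2) and fibroblasts had at most 24 UMIs in any library. At 3 days the T cell level thus lay near that of cDC1, and in the other libraries the lymphoid classes lay below neutrophils, cDC2, monocyte/macrophages and cDC1.

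**Figure D1:**
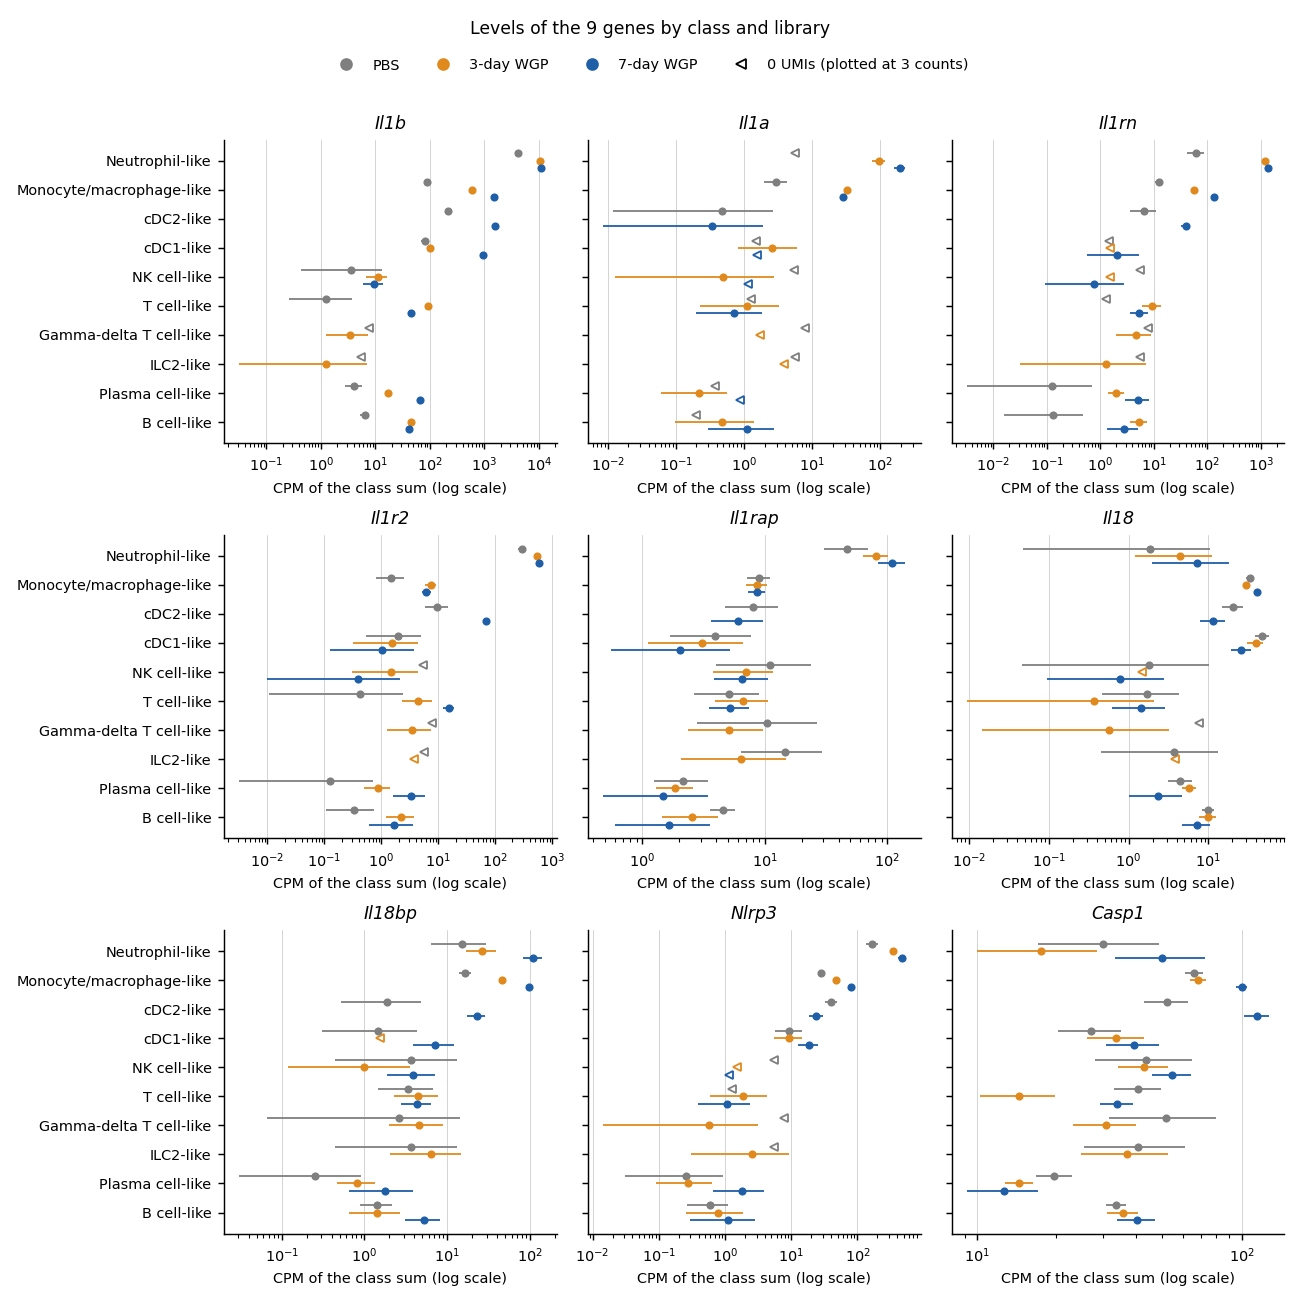
Level of each of the 9 genes in each class and library, in CPM of the class sum on a logarithmic axis, with exact 95% intervals for counting error; colours are the libraries, open triangles mark 0 UMIs, drawn at the level of 3 counts, and class sums of fewer than 50 cells and the non-immune classes are left out. Il1b is highest in neutrophils in every library, Il18 is under 8 CPM in neutrophils, and Casp1 is seen in nearly all classes.

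The largest share of Il1b UMIs was in neutrophils in the PBS and 3-day WGP libraries and in monocyte/macrophages in the 7-day WGP library. Of the 4001 Il1b UMIs in PBS, neutrophils held 54.2% (52.6 to 55.7%) and monocyte/macrophages 21.02% (19.8 to 22.3%). Of the 18294 at 3 days, neutrophils held 51.0% and monocyte/macrophages 39.5%, and of the 40839 at 7 days neutrophils held 14.9% (14.5 to 15.2%) and monocyte/macrophages 64.7% (64.2 to 65.1%). The DC classes together held 16.0%, 3.15% and 16.5%. Such shares combine how many cells of a class were sorted with how much RNA each held, and these cannot be told apart in a share of UMIs. When each cell counted equally, as the mean of its own CPM, the monocyte/macrophage share was 10.9%, 16.3% and 40.5%. With log-normalized clustering, which left a cluster led by Prtn3 and Elane unnamed, it was 12.5%, 14.5% and 45.5%. The share was higher at 7 days than in PBS in each of these readings.

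**Figure D2:**
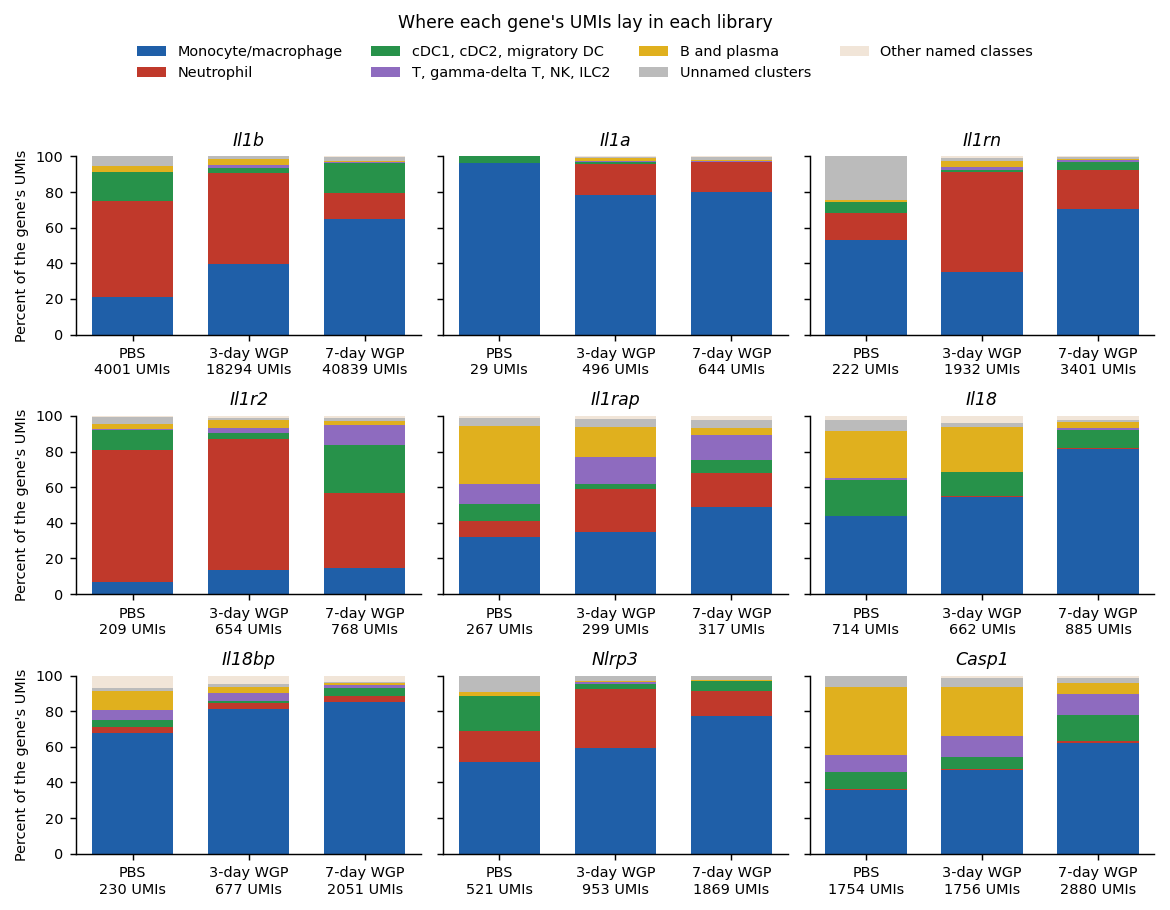
Share of each gene's UMIs found in each group of classes, in percent, for the PBS, 3-day WGP and 7-day WGP libraries, with the number of UMIs. For Il1b the neutrophil part falls from 54.2% to 14.9% and the monocyte/macrophage part grows from 21.02% to 64.7% between PBS and 7-day WGP.

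Within monocyte/macrophages the higher Il1b was seen in the share of cells and in the amount per cell. After every cell was thinned to 1000 UMIs, Il1b was found in 7.25% of PBS, 25.1% of 3-day and 49.7% of 7-day monocyte/macrophages, against 0.178%, 1.07% and 1.47% of B cells. Median depths were 10181 UMIs in PBS monocyte/macrophages and 4415.5 in PBS B cells before thinning. At full depth the shares of this class with an Il1b UMI were 19.6%, 45.5% and 73.0%. In PBS the 10% of monocyte/macrophages with the most Il1b held 88.8% of its UMIs, and at 7 days 41.5%. Among Xist cells alone Il1b was higher by log2 ratios of 1.94 and 4.06, and among Y cells Il1b at 7 days was 1.33 above 3 days on the log2 scale. In cells free of sub-cluster 5, a group of 72 cells led by immunoglobulin genes that held 26.5% of the class's PBS Il1b UMIs, the ratios were 3.12 and 4.45. Without cluster 6, the cells led by Saa3 and Arg1, they were 3.76 and 4.33.

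Summed neutrophil markers in the monocyte/macrophage class were 180 CPM in PBS, 1189 at 3 days and 232 at 7 days, which is 0.0614%, 1.12% and 0.197% of their level in neutrophils, with none of the 7 markers at 0. They were highest at 3 days. In PBS neutrophils S100a8 stood at 124891 CPM and S100a9 at 158717 CPM of a summed 292845 CPM. Both were also among the 10 genes of highest fold in Ly6C-high monocytes, a sub-cluster described below. The part of neutrophil transcripts in the Il1b levels of the class was not tested.

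Of the 7 members with at least 10 CPM in a library of the pair, 4 (Il1b, Il1a, Il1rn and Il18bp) were at least 2-fold higher than PBS in monocyte/macrophages at 3 days, where 5.41% of 8184 genes were. At 7 days 5 of 7 were, with Nlrp3 added, where 5.57% of 8127 genes were. No member was at least 2-fold lower at either time, against 6.93% and 10.2% of genes. The median log2 ratio of the 7 members was 1.47 and 2.56, beside -0.06 and -0.16 over all genes tested. Il1r2 and Il1rap stayed under 10 CPM in the class and were not counted. Within Xist cells 2 members, Il1b and Il18bp, passed the same fold at 3 days.

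Il1a, the gene for IL-1alpha and the chromosomal neighbour of Il1b, was rare and differed from it in where and when it was found. In monocyte/macrophages it stood at 2.97 CPM in PBS (28 UMIs), 32.3 at 3 days (388 UMIs) and 28.7 at 7 days (515 UMIs). PBS was lowest, and the intervals of the WGP libraries, 29.2 to 35.7 and 26.3 to 31.3, overlapped. The log2 ratios to PBS were 3.44 (2.89 to 4.05) and 3.28 (2.73 to 3.88), and the 7-day against 3-day ratio was -0.17 (-0.36 to 0.03). Of the 28 PBS UMIs, 13 came from the 39 cells of sub-cluster 5.

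In Xist cells Il1a at 3 days lay near its PBS level. Its level there was 2.18 CPM in PBS and 2.41 at 3 days (20 and 3 UMIs), a log2 ratio of 0.15 (-2.24 to 1.90), while at 7 days it was 34.4 CPM and the ratio 3.98. Of the 388 Il1a UMIs at 3 days, 305 were in the Y cells, at 36.9 CPM. Library, sex of the mice and time cannot be told apart for this value. Monocyte/macrophages held 96.6%, 78.2% and 80.0% of all Il1a UMIs (29, 496 and 644), and neutrophils 0%, 17.3% and 16.8%. The DC classes, with high Il1b at 7 days, had 1 Il1a UMI in that library.

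Neutrophils were read in cluster 14, led by Hdc, G0s2 and Cxcl2 (52 PBS, 212 3-day and 178 7-day cells), because cluster 24, led by Camp, Ngp and Lcn2, granule genes of immature neutrophils, was 33 of the 85 PBS neutrophils but 9 of 221 and 6 of 184 later. In these cells Il1b was high in every library, at 14388 CPM (13776 to 15021) in PBS, 11639 at 3 days and 13454 at 7 days. PBS was the highest, with log2 ratios of -0.31 (-0.37 to -0.24) and -0.10 (-0.17 to -0.02), so the class's higher Il1b after WGP was not seen within cluster 14. In cluster 24 Il1b was 236 CPM in PBS. Il1rn, the receptor antagonist gene, behaved otherwise in the same cells.

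In cluster 14, Il1rn stood at 159 CPM in PBS (23 UMIs), 1346 at 3 days (1077 UMIs) and 1653 at 7 days (733 UMIs). Both WGP libraries were far above PBS, with log2 ratios of 3.08 (2.48 to 3.74) and 3.37 (2.78 to 4.04). Sex of the mice and library cannot be told apart for these neutrophil ratios. No Il1a UMI was counted in the PBS cells. Its levels after WGP were 107 and 241 CPM, and set against a floor of 3 counts its log2 ratio was at least 2.37 and at least 3.54. Il18bp was 34.7, 27.5 and 133 CPM, with a 7-day ratio of 1.94 (0.64 to 3.62). Of the 8 members tested there, Il1a and Il1rn were at least 2-fold higher at 3 days (16% of 6672 genes were) and Il1a, Il1rn and Il18bp at 7 days (13.6% of 6626). None was at least 2-fold lower, against 17.8% and 21.5% of genes.

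Il1rn was also higher after WGP in monocyte/macrophages, by 4.53-fold at 3 days and 10.7-fold at 7 days. It stood at 12.5 CPM (118 UMIs) in PBS, 56.7 (681 UMIs) at 3 days and 134 (2400 UMIs) at 7 days. The 3 intervals did not overlap, and the log2 ratios were 2.18 (1.90 to 2.48) and 3.42 (3.15 to 3.70). Restricted to Xist cells they were 0.77 and 3.28. The class sums mix sub-clusters, described below, in different shares between libraries. Within resident macrophages the 3-day and 7-day ratios were 2.27 (1.76 to 2.77) and 0.02 (-1.64 to 1.30). Within Ly6C-low monocytes they were 2.21 (0.90 to 3.65) and 1.12 (-0.21 to 2.57). Ly6C-high monocytes had ratios of 1.19 (0.17 to 2.44) and 1.98 (0.99 to 3.21). In cDC1 Il1rn had 0, 0 and 4 UMIs, and in cDC2 it went from 6.64 to 39.6 CPM at 7 days.

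The classes that held most Il1rn differed between libraries. Of 222 Il1rn UMIs in PBS, monocyte/macrophages held 53.2%, neutrophils 14.9% and the unnamed clusters 24.3%, of which 53 UMIs came from the 57 cells of cluster 8.3. Of 1932 at 3 days, neutrophils held 55.8% and monocyte/macrophages 35.2%. Of 3401 at 7 days, monocyte/macrophages held 70.6% and neutrophils 22.0%. Neutrophils thus held the most Il1rn UMIs at 3 days and monocyte/macrophages in the other libraries.

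The ratio of Il1rn to Il1b UMIs compares the antagonist with the cytokine in the summed UMIs of a class. It was higher than PBS after WGP in the neutrophil sum and lower in the monocyte/macrophage sum, a difference that was not tested. In neutrophils it was 0.0152 (0.0105 to 0.0215) in PBS, 0.116 (0.109 to 0.123) at 3 days and 0.123 (0.114 to 0.133) at 7 days. In monocyte/macrophages it was 0.140 (0.115 to 0.170), 0.0943 (0.0870 to 0.102) and 0.0909 (0.0871 to 0.0947). This sum mixes sub-clusters, described below, in different shares between libraries. Within resident macrophages the ratio was 0.378 in PBS, 0.525 at 3 days and 0.0355 at 7 days. Within Ly6C-low monocytes it was 0.0278, 0.0464 and 0.0205, and within Ly6C-high monocytes 0.121, 0.0280 and 0.0483. The PBS and 3-day intervals overlapped within resident macrophages and Ly6C-low monocytes. After WGP the neutrophil ratio lay above that of monocyte/macrophages, and in PBS below it. In cDC1 at 7 days the ratio was 0.00214 from 4 Il1rn and 1867 Il1b UMIs, and in cDC2 it was 0.0304 in PBS and 0.0251 at 7 days. These are ratios of captured UMIs and not of protein, and sex of the mice and library cannot be told apart for them.

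**Figure D3:**
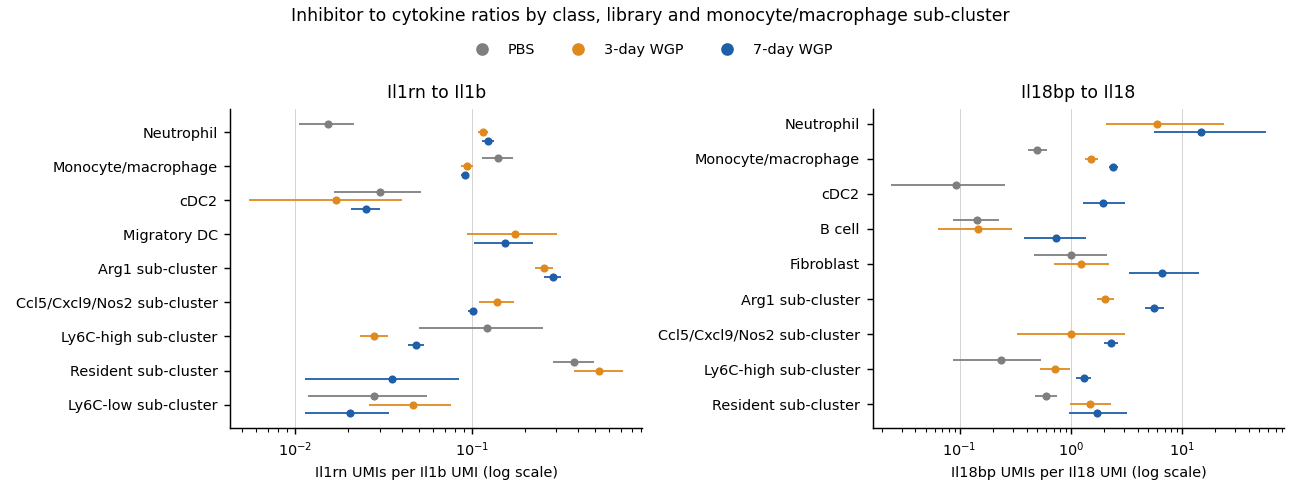
Ratio of Il1rn to Il1b UMIs (left) and of Il18bp to Il18 UMIs (right), on logarithmic axes, for a choice of classes and named sub-clusters, by library, with exact 95% intervals for counting error; sums of fewer than 20 cells are left out. The neutrophil Il1rn ratio is higher in both WGP libraries than in PBS, and the Il18bp ratio of monocyte/macrophages goes from 0.5 to 1.52 and 2.42.

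Within monocyte/macrophages Il1rn was found in a larger share of the cells that had Il1b than of those that did not. After thinning, Il1rn was found in 4.84% of PBS monocyte/macrophages with Il1b and 0.883% of those without it, in 11.2% and 3.25% at 3 days, and in 12.99% (10.7 to 15.6%) and 5.88% (4.31 to 7.82%) at 7 days. The PBS intervals, 1.01 to 13.5% (3 cells with both genes) and 0.356 to 1.81%, overlapped. The class pools sub-clusters that differ in both genes, described below, and shares within them are not given here. In neutrophils at 7 days Il1rn was found in 54.7% of those with Il1b and in 7 of the 14 without it, with overlapping intervals. Nlrp3 was found in 38.2% of 7-day neutrophils with Il1b and in 1 of the 14 without it.

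Il18, the gene for IL-18, stayed within 1.22-fold of PBS in monocyte/macrophages, and its inhibitor Il18bp was 2.77-fold and 5.91-fold higher. In monocyte/macrophages Il18 stood at 33.0 CPM (312 UMIs) in PBS, 30.04 (361 UMIs) at 3 days and 40.3 (723 UMIs) at 7 days, with log2 ratios of -0.14 (-0.36 to 0.09) and 0.29 (0.09 to 0.48). Il18bp in the same cells stood at 16.5 CPM (156 UMIs), 45.8 (550 UMIs) and 97.7 (1752 UMIs). Its 3 intervals did not overlap, and the log2 ratios were 1.47 (1.21 to 1.74) and 2.56 (2.33 to 2.81), or 1.05 and 2.41 in Xist cells. Without cluster 6 the 3-day ratio was 0.66.

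The Il18bp to Il18 ratio in monocyte/macrophages was 0.5 (0.410 to 0.608) in PBS, 1.52 (1.33 to 1.74) at 3 days and 2.42 (2.22 to 2.65) at 7 days. Over all kept barcodes it was 0.322, 1.02 and 2.32, so captured Il18bp UMIs were fewer than those of Il18 in PBS and more at 7 days. Sex of the mice and library cannot be told apart for these ratios. Monocyte/macrophages held 67.8%, 81.2% and 85.4% of Il18bp UMIs (230, 677 and 2051). Fibroblasts, of which 28 to 74 were in each library, had Il18bp at 20.5, 39.1 and 125 CPM and a ratio of 1, 1.24 and 6.6. These fibroblasts, like the acinar and erythroid cells, were found although the sort was for CD45+ cells. Together these classes were 3.38 to 5.02% of each library, and Ptprc, which encodes CD45, was found in at most 15.9% of them against 90.9 to 97.1% of the other barcodes.

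The dendritic cell classes had less Il18 at 7 days than in PBS, and in cDC2 this was not seen within either cluster. In cDC1, where it was 47.7 CPM in PBS, it was 39.3 at 3 days and 25.9 at 7 days, with a 7-day log2 ratio of -0.88 (-1.40 to -0.37). In cDC2 it was 20.4 CPM in PBS and 11.5 at 7 days, a ratio of -0.83 (-1.52 to -0.14). Within cluster 8.0, which held most 7-day cDC2, it was 11.7 CPM (4.30 to 25.5) in PBS and 9.92 (6.59 to 14.3) at 7 days, and within cluster 8.1, which held most PBS cDC2, 23.2 (16.3 to 32.0) and 45.0 (16.5 to 98.0). B cells had Il18 at 9.93, 9.84 and 7.11 CPM, and neutrophils at most 4 UMIs in a library. Among classes of at least 50 cells the order of Il18 levels in PBS was cDC1, monocyte/macrophages, fibroblasts and cDC2, where the fibroblast interval overlapped those of both neighbours, and at 7 days monocyte/macrophages stood first.

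Il1r2, the decoy receptor gene, was highest in neutrophils among the named classes in every library. Neutrophils held 74.2% of its 209 UMIs in PBS, 73.9% of 654 at 3 days and 42.3% of 768 at 7 days. In cluster 14 it stood at 742 CPM, 583 and 692, with log2 ratios of -0.35 (-0.65 to -0.03) and -0.10 (-0.42 to 0.23). In cDC2 it went from 9.49 CPM in PBS to 69.4 (60.2 to 79.5) at 7 days, a ratio of 2.87 (2.20 to 3.61), and the DC classes held 27.2% of its UMIs in that library against 11.5% in PBS. In T cells it went from 1 UMI in PBS (0.424 CPM) to 12 at 3 days (4.46 CPM) and 84 at 7 days (15.1 CPM, in 22 of 667 cells), a 7-day ratio of 5.16 (2.64 to 10.5). The T cells pooled clusters 4 and 19 in different shares (248 and 54 cells in PBS, 548 and 119 at 7 days). Sex of the mice and library cannot be told apart for their ratio. In monocyte/macrophages Il1r2 was 1.48, 7.32 and 6.19 CPM, with log2 ratios in Xist cells of 1.01 (-1.47 to 2.93) and 2.32 (1.34 to 3.43). In cDC1 it had at most 4 UMIs in any library.

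Il1rap, the accessory chain shared by IL-1, IL-33 and IL-36 receptors, was low and spread over the classes. It had 267, 299 and 317 UMIs in all. In monocyte/macrophages it stood at 9.004, 8.65 and 8.65 CPM, and the log2 ratio was -0.06 at both times, with intervals of -0.48 to 0.37 and -0.45 to 0.34. Neutrophils had the highest level, 46.8, 80.2 and 110 CPM, and in cluster 14 the ratios were -0.47 and 0.12 with intervals that span 0. A difference of Il1rap from PBS was not detectable at this depth in monocyte/macrophages or in cluster 14. Between the WGP libraries, cluster 14 stood at 89.95 CPM at 3 days and 135 at 7 days, a ratio of 0.59 (0.07 to 1.10).

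Nlrp3, the inflammasome sensor, was 1.65-fold higher at 3 days and 2.82-fold higher at 7 days in monocyte/macrophages. It stood at 28.5 CPM (269 UMIs) in PBS, 46.9 (564 UMIs) at 3 days and 80.4 (1441 UMIs) at 7 days. The intervals did not overlap, and the log2 ratios were 0.72 (0.51 to 0.93) and 1.496 (1.31 to 1.69), or 0.37 (-0.11 to 0.83) and 1.33 in Xist cells. Within Ly6C-high monocytes, a sub-cluster described below, the ratios were 1.74 (0.66 to 3.08) and 1.82 (0.76 to 3.14). Resident macrophages had ratios of 0.20 (-0.36 to 0.71) and 0.73 (-0.01 to 1.40). Ly6C-low monocytes had 0.21 (-0.58 to 0.96) and -0.06 (-0.72 to 0.59). In cluster 14 neutrophils it was 548, 389 and 573 CPM, lower at 3 days by a log2 ratio of -0.50 (-0.86 to -0.12). In cDC2 it was 39.9 CPM in PBS and 24.02 at 7 days, a ratio of -0.73 (-1.21 to -0.26). The cDC2 of these libraries came mostly from different clusters, and within cluster 8.0 the intervals overlapped, at 31.3 CPM (17.9 to 50.8) and 25.2 (19.6 to 31.7). Within cluster 8.1 Nlrp3 was 42.6 CPM (33.1 to 54.0) in PBS, and none was counted in its 11 cells at 7 days (upper limit 27.7 CPM).

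Casp1, the gene for caspase-1, was found at 10 CPM or more in most classes. In monocyte/macrophages Casp1 stood at 66.0 CPM, 68.3 and 100.3. Its log2 ratios there were 0.05 (-0.10 to 0.20) and 0.60 (0.47 to 0.74), or -0.28 (-0.66 to 0.08) and 0.47 (0.31 to 0.63) in Xist cells. In B cells it was 33.5, 35.6 and 40.2 CPM, in NK cells 43.7, 42.8 and 54.5, and in cDC2 52.2, 61.5 and 114. Neutrophils, with the highest Il1b, had Casp1 at 29.9, 17.6 and 50.3 CPM from 16, 16 and 28 UMIs. Some lymphoid classes lay below PBS. T cells stood at 40.7 CPM in PBS, 14.5 at 3 days and 33.9 at 7 days, with log2 ratios of -1.49 (-2.07 to -0.94) and -0.27 (-0.63 to 0.10). These T cells pooled cluster 4 (248, 164 and 548 cells) and cluster 19 (54, 170 and 119 cells), and values within them are not given here. Their Xist and Y cells numbered 250 and 22, 156 and 102, and 223 and 298. Sex of the mice and library cannot be told apart for the lymphoid ratios. Plasma cells stood at 19.7, 14.4 and 12.7 CPM, with ratios of -0.44 (-0.74 to -0.15) and -0.63 (-1.15 to -0.13). Monocyte/macrophages held 35.5%, 46.8% and 62.4% of Casp1 UMIs.

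Monocyte/macrophages were then split into 7 sub-clusters, again without the 9 genes, and 6 took a name. The seventh, sub-cluster 5, had 39, 28 and 5 cells. Resident macrophages (led by Fcrls, Mgl2 and Mrc1) numbered 619, 112 and 46 cells in PBS, 3-day WGP and 7-day WGP. Ly6C-high monocytes (Vcan, Ms4a4c and Ccr2) numbered 29, 170 and 455, Arg1 macrophages (Arg1, Saa3 and Gpnmb) 3, 377 and 264, and cells named for Ccl5, Cxcl9 and Nos2 (led by Ly6i, Cxcl9 and Ccl5) 4, 23 and 604. Ly6C-low patrolling monocytes (Ace, Ear2 and Chil3) numbered 125, 47 and 113, and large peritoneal-like macrophages (Cxcl13, Alox15 and Prg4) 36, 24 and 0. The composition of the class therefore differed between libraries, and its sums mix these cells in different shares.

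Il1b differed between sub-clusters of the same library. Among the named ones at 7 days it stood at 2188 CPM in Ccl5/Cxcl9/Nos2 cells, 1677 in Ly6C-high monocytes, 790 in Ly6C-low monocytes, 323 in Arg1 macrophages and 319 in resident macrophages. The last 2 had overlapping intervals, and the others did not. At 3 days their order was the same, at 2022, 1669, 743, 217 and 103 CPM. The unnamed sub-cluster 5 stood at 812 CPM (709 to 926) in PBS, the highest level there in a sub-cluster of more than 4 cells, at 1992 (1747 to 2261) at 3 days and at 64.5 (1.63 to 359; 1 UMI in 5 cells) at 7 days. In PBS Ly6C-low monocytes had 268 CPM, Ly6C-high monocytes 169 and resident macrophages 29.6, and large peritoneal-like macrophages had 0 UMIs in 36 cells.

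Within the 3 named sub-clusters of more than 20 cells in all libraries, Il1b was higher after WGP, where sex of the mice and library cannot be told apart. In resident macrophages the levels were 29.6, 103 and 319 CPM, in Ly6C-high monocytes 169, 1669 and 1677, and in Ly6C-low monocytes 268, 743 and 790. Ly6C-high monocytes held 60.7% of the class's Il1b UMIs at 3 days with 21.8% of its cells. At 7 days the Ccl5/Cxcl9/Nos2 cells held 58.7% with 40.6% of its cells, and Ly6C-high monocytes 32.7%. Il1b and Il1rn were among the 10 genes of highest fold in the Ccl5/Cxcl9/Nos2 cells, although neither had been used to find them.

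**Figure D4:**
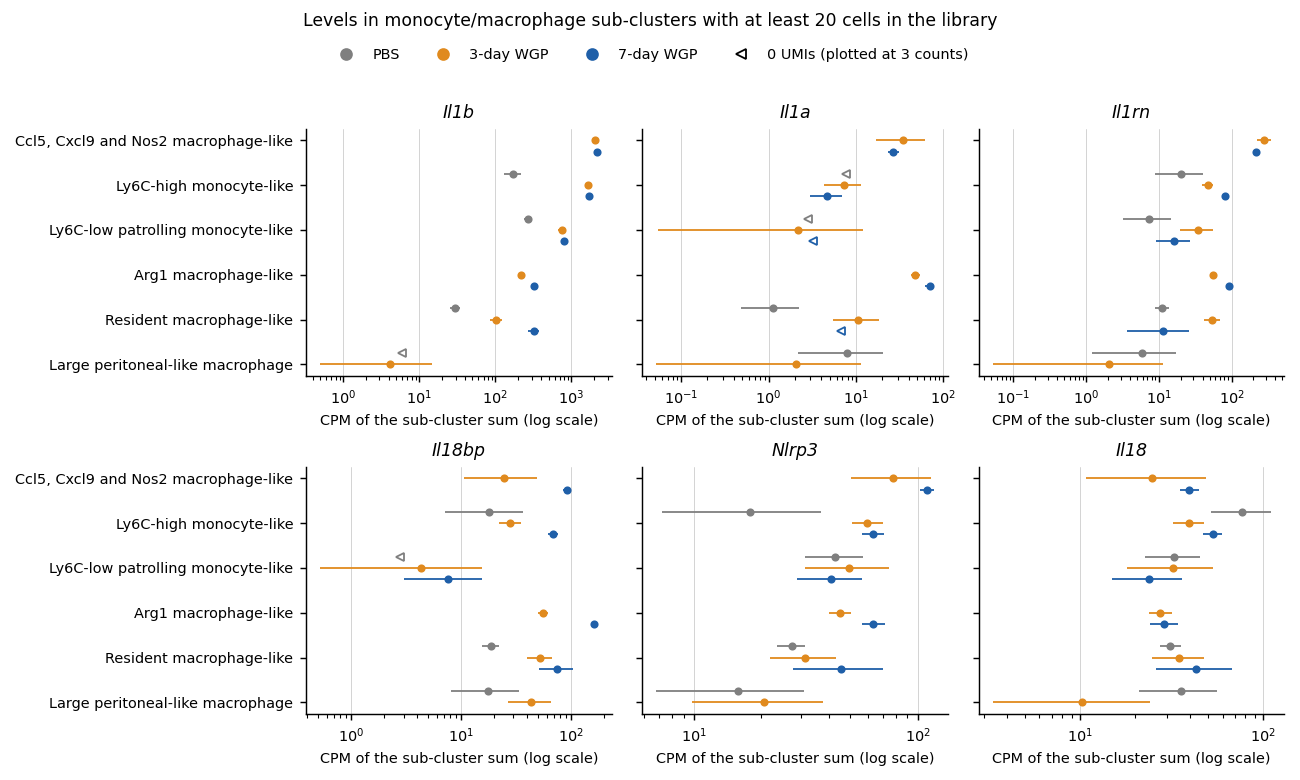
Levels of 6 of the genes in the monocyte/macrophage sub-clusters, in CPM on a logarithmic axis with exact 95% intervals for counting error, by library; open triangles mark 0 UMIs, drawn at the level of 3 counts, and the unnamed sub-cluster 5 and sums of fewer than 20 cells are left out. After WGP, Il1b is highest of those drawn in the Ccl5/Cxcl9/Nos2 and Ly6C-high sub-clusters, and at 7 days Il1a and Il18bp are highest in the Arg1 sub-cluster.

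Il1a and Il18bp had another distribution, and at 7 days Arg1 macrophages had the highest level of both among the named sub-clusters. Il1a stood at 47.9 CPM (42.9 to 53.4) in Arg1 macrophages at 3 days and 70.0 (62.3 to 78.4) at 7 days, against 26.8 (23.1 to 30.9) in Ccl5/Cxcl9/Nos2 cells and 4.65 in Ly6C-high monocytes at 7 days. At 3 days the 28 cells of sub-cluster 5 stood above them, at 133.9 CPM (76.5 to 217; 16 UMIs), and the interval of the Ccl5/Cxcl9/Nos2 cells, 17.1 to 61.1, overlapped theirs. Arg1 macrophages held 84.5% of the class's Il1a UMIs at 3 days with 48.3% of its cells, and 58.4% at 7 days with 17.8%. The Il1a to Il1b ratio was 0.221 and 0.217 in them and 0.0123 in Ccl5/Cxcl9/Nos2 cells at 7 days. Il18bp stood at 55.9 CPM (50.5 to 61.8) in Arg1 macrophages and 52.2 (39.8 to 67.2) in resident macrophages at 3 days, with overlapping intervals. It stood at 163 CPM in Arg1 macrophages, 91.6 in Ccl5/Cxcl9/Nos2 cells and 69.2 in Ly6C-high monocytes at 7 days, when the 5 cells of sub-cluster 5 had 4 UMIs (258 CPM, 70.3 to 661). In Ly6C-low monocytes it had 0, 2 and 7 UMIs.

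The inhibitor ratios also differed between sub-clusters. The Il1rn to Il1b ratio was 0.257 and 0.287 in Arg1 macrophages at 3 and 7 days, 0.0280 and 0.0483 in Ly6C-high monocytes, and 0.138 and 0.101 in Ccl5/Cxcl9/Nos2 cells. In resident macrophages it was 0.378 in PBS, 0.525 at 3 days and 0.0355 (0.0113 to 0.0847) at 7 days, where 5 Il1rn UMIs were counted in 46 cells. The Il18bp to Il18 ratio was 2.04 and 5.66 in Arg1 macrophages and 0.6, 1.5 and 1.74 in resident macrophages. Il1rn itself was highest in Ccl5/Cxcl9/Nos2 cells, at 280 CPM at 3 days and 220 at 7 days, against 55.6 and 92.8 in Arg1 macrophages.

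Nlrp3 and Casp1 had smaller ranges over the named sub-clusters, and sub-cluster 5, left out of the 7-day ranges here, had 0 UMIs of both in 5 cells. At 7 days Nlrp3 ranged from 41.0 CPM in Ly6C-low monocytes to 111 in Ccl5/Cxcl9/Nos2 cells, and resident macrophages stood at 27.3, 31.3 and 45.3 CPM. Casp1 was 142 CPM in Ly6C-high monocytes and 122 in Ly6C-low monocytes at 7 days, and 70.5 to 87.1 CPM in the other named sub-clusters present. Il18 was 52.9 CPM in Ly6C-high monocytes at 7 days and 23.8 to 43.1 CPM in the others.

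The wider pathway was read from 45 further genes in 4 lists, 30 of which passed 10 CPM in monocyte/macrophages. At 3 days 3 were at least 2-fold higher than PBS (Mefv, Irak3 and Nfkbia) and 4 lower (Il1rl1, Nlrp1b, P2rx7 and Txnip), and at 7 days 4 were higher (Mefv, Gsdmd, Casp4 and Nfkbia) and 3 lower (Il1rl1, P2rx7 and Txnip). Over all genes tested 5.41% were higher and 6.93% lower at 3 days and 5.57% and 10.2% at 7 days, so 3 of 30 lower at 7 days is near the share of all genes. The median log2 ratio of the 30 was 0.13 and 0.27, beside -0.06 and -0.16 for all genes. Among the 16 inflammasome and pyroptosis genes tested, 1 was higher and 3 lower at 3 days, and 3 were higher and 2 lower at 7 days, where the 1 higher and the 2 lower are near the shares of all genes.

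Mefv, which encodes the inflammasome sensor pyrin, went from 11.9 CPM to 29.5 and 61.5, and Casp4, which encodes caspase-11, the mouse sensor of cytosolic endotoxin, went from 33.5 CPM to 99.7 at 7 days. Nfkbia, which encodes the NF-kappa-B inhibitor IkappaB-alpha, went from 250 CPM to 656 at 3 days. P2rx7, the ATP-gated channel that can trigger NLRP3, went from 94.4 CPM to 43.7 and 31.9, and Txnip, a thioredoxin-binding protein reported to bind NLRP3, from 571 CPM to 279 and 208. Nlrp3 was thus higher and P2rx7 lower than PBS in the sums of the same class at both times. These sums mix sub-clusters in different shares, and no values of P2rx7, Txnip, Mefv, Casp4 or Nfkbia within sub-clusters or Xist cells are given here. The Nlrp3 interval included 0 within resident macrophages and Ly6C-low monocytes at both times and in Xist cells at 3 days. Within Ly6C-high monocytes it excluded 0 at both times.

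The signalling receptors of the family were read in every class. Il1r1, the signalling IL-1 receptor, was at 69.8, 67.7 and 79.5 CPM in gamma-delta T cells and 57.6, 156 and 92.9 CPM in fibroblasts, where the last gamma-delta T value came from 6 cells. Il18r1 and Il18rap, the chains of the IL-18 receptor, were at 188, 178 and 245 CPM and at 252, 237 and 250 CPM in NK cells, and Il18r1 was at 388 and 217 CPM in PBS and 3-day gamma-delta T cells. Il1rl1, the IL-33 receptor, was at 536 and 527 CPM in PBS and 3-day ILC2, which numbered 6 at 7 days. Il18rap was also at 80.4, 111 and 137 CPM in neutrophils. Sigirr, an inhibitory receptor of the family, was at 35.0 and 76.2 CPM in PBS and 3-day ILC2 and at 27.3, 51.3 and 35.2 CPM in NK cells. Il1rl2, the IL-36 receptor, passed 20 CPM in fibroblasts alone among the classes, at 22.7 CPM at 3 days.

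Over 32 sums of a class in a library, Il1b was most like B430306N03Rik (Pearson r of log2(CPM + 10) = 0.94), Nlrp3 (0.93), 1600010M07Rik, Mefv and Fgr (each 0.91). Il1rn was most like Clec4n, which encodes dectin-2 (0.97), Gpr84 (0.97) and Slc7a11 (0.94), and Il1a like Gm16181 (0.95), Adgb (0.95) and Olr1 (0.94). Il1r2 was most like Ptgs2os2 (0.95), Scnn1a (0.94) and Retn (0.94), and Il1rap like Scnn1a (0.93), Cxcr2 (0.92) and H2-Q10 (0.92). Nlrp3 was most like B430306N03Rik (0.98), Sirpb1b (0.97) and Mefv (0.96). Il18 was most like Sh3tc1 (0.95), BC028528 (0.94) and Cyp27a1 (0.93), Il18bp like Dram1 (0.95), Tgm2 (0.92) and C1rl (0.91), and Casp1 like Dok1, Nipa2 (each 0.90) and Dr1 (0.89). The sums share libraries and differ in depth, so these values describe likeness of pattern and nothing more. Between Il1b and Il18 the same measure was 0.39, and between Il1b and Il1rn 0.82.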

How the data were processed

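The deposited files held raw UMI counts per gene and barcode, which the authors made with Cell Ranger 3.1.0 against mm10, with no normalization. Barcodes with at least 1000 UMIs and at most 30% mitochondrial UMIs were kept, and no doublet removal was applied to the main values, since Scrublet called 0, 0 and 1 cells. Counts were normalized by sctransform 0.4.2 in Seurat 5.3.0 (R 4.3.3), with cell cycle, mitochondrial and ribosomal content regressed out. Clusters came from 30 components of the 3000 most variable genes, less the members and pathway genes among them, at resolution 0.8. A class name needed 3 markers and a mean log2 fold of at least 1, with a pseudocount of 20 CPM and a margin of 0.5 over the next name. The further split of cluster 8 at resolution 0.4, the counting of sub-cluster markers as monocyte/macrophage markers, the genes that kept clusters 7 and 21 unnamed, and the reading of neutrophils in cluster 14 were settled after the clusters had been seen.

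Levels are UMIs of a gene per 1000000 UMIs of a class (CPM), with exact Poisson intervals for levels and exact conditional binomial intervals for ratios and shares. Class sums under 50 cells gave no ratio. Genes were counted as higher or lower past 2-fold if at least 10 CPM in a library of the pair. For shares of cells, each cell was thinned to 1000 UMIs. Apart from the 9 members, genes were named by rule: the 2 pathway genes furthest above and the 2 furthest below PBS at each time with at least 20 CPM, receptors with at least 20 CPM in a class, the 5 genes of highest Pearson r with Il1b and the 3 highest with each other member, and the 3 leading genes of each sub-cluster. Other pathway genes are named where a count of 5 or fewer held them, after their values were seen, as were the leading genes of clusters 6, 14 and 24. Single class markers were also named after their values were seen. The members and lists were chosen with earlier results of these data known. The ratios, their intervals and the 2-fold calls were tested on simulated counts, and the naming of classes was not. Python 3.11.15, numpy 2.4.6, scipy 1.17.1, pandas 2.3.3, scanpy 1.11.5 and edgeR 4.0.16 (for TMM factors only) were used. Alternatives were other UMI minimums, a limit on ribosomal UMIs, clustering input and resolution, doublet removal, free RNA subtraction, TMM, a mean over cells, no filter on low values, no thinning and Xist cells only, and, chosen after seeing the data, leaving out shared barcodes, cluster 6, sub-cluster 5 or cluster 24. Gene positions are from GENCODE on GRCm38 and promoters from RefSeq on GRCm38.p6, where 9 of 9 members matched.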

Additional observations from a re-analysis of the deposited data

Results flagged for a closer look

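Some members differed in direction between classes at 7 days, going by intervals that exclude 0 in both classes, and the difference between classes was not tested. Il18 was above PBS in monocyte/macrophages and below it in cDC2 (log2 ratio -0.83) and cDC1 (-0.88). The sub-clusters of the monocyte/macrophage class were in different shares in the libraries. Within Ly6C-high monocytes the 7-day Il18 ratio was -0.54 (-1.08 to 0.06) and within Ly6C-low monocytes -0.45 (-1.29 to 0.36). Within resident macrophages it was 0.47 (-0.29 to 1.14). Nlrp3 was above PBS in monocyte/macrophages and below it in cDC2 (-0.73). Its ratio was 1.82 (0.76 to 3.14) within Ly6C-high monocytes, 0.73 (-0.01 to 1.40) within resident macrophages and -0.06 (-0.72 to 0.59) within Ly6C-low monocytes. The PBS and 7-day cDC2 came mostly from different clusters, and within cluster 8.0 the intervals of PBS and 7-day WGP overlapped for both genes. Casp1 was above PBS in monocyte/macrophages and below it in plasma cells (-0.63), of which 77 were in the 7-day library. Its ratio was 0.66 (0.17 to 1.19) within Ly6C-high monocytes, 0.39 (-0.17 to 0.90) within resident macrophages and 0.14 (-0.24 to 0.52) within Ly6C-low monocytes.

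Barcodes of at least 500 and fewer than 1000 UMIs, which entered no comparison, also carried members above their PBS level. Il1b stood at 1482 CPM in the 7-day WGP barcodes against 232 CPM in PBS. Il1rn stood at 128 CPM in 3-day WGP and 149 CPM in 7-day WGP, with 0 UMIs in PBS. Nlrp3 stood at 74.6 CPM in 7-day WGP against 7.26 CPM in PBS. There were 197, 239 and 250 such barcodes.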

How the results depend on the processing

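Of 369 values recomputed under alternatives, 274 lay within the spread allowed, 89 moved outside it and 6, all in neutrophils, changed sign. Those that moved included 39 of 234 monocyte/macrophage log2 ratios, 18 of 36 shares of Il1b UMIs and 27 of 27 shares of cells. The 182 recomputed monocyte/macrophage ratios whose interval excluded 0 kept their sign. No paired analysis was possible because each group has 1 library. For the same reason no library could be left out of a group. The log2 ratio of Il1b in monocyte/macrophages at 3 days (2.75) was 2.18 with log-normalized clustering, 1.94 in Xist cells, 2.38 as a mean over cells, 2.89 with TMM, 3.76 without cluster 6 and 3.12 without sub-cluster 5. At 7 days (4.05) it was 4.61 with log-normalized clustering, 3.63 as a mean over cells, 4.29 with TMM, 4.33 without cluster 6 and 4.45 without sub-cluster 5. For Il1rn it was 0.77 in Xist cells and 2.48 as a mean over cells at 3 days (2.18), and 3.89 with log-normalized clustering at 7 days (3.42). Members at least 2-fold higher at 3 days were 2 in Xist cells against 4.

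The share of Il1b UMIs in monocyte/macrophages in PBS (21.02%) was 23.1% with a minimum of 2000 UMIs, 19.8% without the highest doublet scores, 12.5% with log-normalized clustering, 35.9% in Xist cells, 10.9% as a mean over cells and 15.4% without sub-cluster 5. At 3 days (39.5%) these were 40.3%, 38.4%, 14.5%, 16.3% as a mean over cells, 31.1% without cluster 6 and 38.2% without sub-cluster 5. At 7 days (64.7%) the share was 63.8% with a minimum of 500 UMIs, 67.9% with 2000, 45.5% with log-normalized clustering, 85.2% in Xist cells, 40.5% as a mean over cells and 61.4% without cluster 6. In neutrophils, cluster 14 alone turned the ratios of Il1b to -0.31 and -0.10, of Il1r2 to -0.35 and -0.10, and at 3 days of Il1rap to -0.47 and of Nlrp3 to -0.50, because cluster 24 then left the PBS sum, and gave 3.08 and 3.37 for Il1rn. The cause of the other shifts was not tested. Leaving out cluster 6, sub-cluster 5 or shared barcodes was chosen after seeing the data.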
